A study of Homo sapiens with 12 samples.

Results

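Palbociclib-resistant A375 cells were set against palbociclib-resistant CHL1 cells, with 3 RNA-seq libraries a side, which are 6 of the 12 libraries of the series. A375 and CHL1 are established human melanoma lines; A375 carries an activating BRAF mutation and CHL1 does not. The resistant derivatives, A375AR991 and CHL1AR991, came from growth in RPMI medium with rising palbociclib, over 7 months for A375 and over 3 months for CHL1, and were then kept in 4 µM of the drug. Before RNA extraction the protocol gives the resistant cells 72 h in drug-free medium, and no such interval is listed for the parental cells. Parental A375 and parental CHL1, with 3 libraries each, had received no drug. The libraries were taken by their labels, and their measured values did not decide which library stands in which group. Each line gave 1 resistant derivative, and the labels do not say whether it was a clone or a pool, so the line, the length of exposure and the history of that derivative cannot be told apart. The labels also do not say whether replicates were separate cultures, so the p-values below measure only the spread between these libraries, which may be technical.

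Palbociclib inhibits CDK4 and CDK6, the kinases that join D-type cyclins to phosphorylate the retinoblastoma protein and release E2F factors for entry into S phase. Cyclin E with CDK2 can phosphorylate the same protein, and the inhibitors encoded by CDKN2A, CDKN2B, CDKN1A and CDKN1B restrain these kinases. In melanoma, CDKN1A also stands downstream of p53, whose breakdown is driven by MDM2, and melanoma lines differ in how far they keep the SOX10 and MITF programme of melanocytes or show a dedifferentiated state with AXL, EGFR and NGFR. The question put to the data was which line differences seen between untreated cells remain, appear or vanish once both lines are resistant.

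The 6 resistant libraries and the 6 parental ones held 25398920 to 29812686 counted reads each, so that 3 reads corresponded to 0.101 to 0.118 CPM, the count scaled to library size. Levels below are CPM after TMM normalisation, which corrects for composition between libraries, and they are not scaled to gene length, so they are compared between groups and not between genes. Principal component 1 split the libraries by line and carried 89.9% of the variance, and component 2 carried 4.60%. The share of counts from mitochondrial genes was 1.98% to 2.30% in resistant A375 and 2.79% to 3.29% in resistant CHL1. Counts without a gene symbol made up 0.919% of the second resistant CHL1 library and 0.994% of the first parental CHL1 library, against 1.52% to 1.69% in the other libraries; calls that are lost when 1 library is left out are named beside the gene or in the closing sections. Of the melanocyte markers, SOX10 averaged 300.1 ± 84.0 CPM in resistant A375 and 1026 ± 87.4 CPM in resistant CHL1 (SD, n = 3 each). PMEL, MLANA and TYR, which mark pigmented melanocytes, averaged under 1 CPM in both resistant groups. Of the 10 melanocyte markers listed, SOX10 and MITF, whose values are given below, were above 1 CPM in every resistant library, unlike PMEL, MLANA and TYR. Not all members of that list are given, and the melanoma identity is taken from the line names. The pigment genes DCT and OCA2, given below, were above 1 CPM in resistant CHL1 but not in resistant A375. The summed level of 11 leukocyte markers was 56.7 to 74.2 CPM in resistant A375, most of it CD68 at 62.8 ± 8.99 CPM, and 12.05 to 13.1 CPM in resistant CHL1, most of it PTPRC at 9.18 ± 0.492 CPM, while CD3E was at 0 in all 6. The sum of 14 keratinocyte and epithelial markers was 500.3 to 553 CPM in resistant A375 and 33.9 to 38.1 CPM in resistant CHL1, led by KRT18 at 417 ± 27.97 CPM in resistant A375 and 18.6 ± 0.496 CPM in resistant CHL1, with EPCAM and CDH1 under 1 CPM in both lines. The sum of 11 fibroblast markers was 50.9 to 59.5 CPM in resistant A375 and 11.999 to 14.6 CPM in resistant CHL1, and that of 8 endothelial markers was 11.4 to 17.4 CPM in resistant A375 and 2.60 to 3.24 CPM in resistant CHL1; the part of these markers in the results was not tested.

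Between the resistant lines, 7733 genes were higher in A375 and 7301 were lower in A375 among 19545 genes tested with edgeR's quasi-likelihood test at a Benjamini-Hochberg adjusted p under 0.05, which is 76.9% of the genes tested (39.6% and 37.4%). With a change of at least 2-fold as well, called a 2-fold call below, 4122 were higher in A375 and 3669 were lower, which is 39.9% (21.1% and 18.8%). The groups of 3 did not overlap for 79.6% of genes. In bulk RNA, fewer cells that express a gene and less RNA per cell cannot be told apart. The parental lines gave 3847 and 3663 such 2-fold calls, or 38.4% (19.7% and 18.7%); at adjusted p under 0.05 alone the share was 75.9% (38.8% and 37.1%), and the groups did not overlap for 77.5%. Across genes, the line contrast among resistant cells had a Pearson correlation of 0.932 and a Spearman correlation of 0.908 with that among parental cells; these are descriptions over 19545 genes, which are not independent replicates, and the contrasts share no library. The median absolute log2 fold change was 0.76 among resistant cells and 0.72 among parental cells.

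Most line differences were kept. Of the 7791 genes with a 2-fold call among resistant cells, 6295 had a 2-fold call with the same sign among parental cells, 3220 higher in A375 and 3075 higher in CHL1. They make up 80.8% of the resistant calls and 83.8% of the parental ones. The difference between the line contrasts, resistant minus parental, was itself tested as the interaction of line and resistance: 2460 genes had a positive difference and 2056 a negative one at adjusted p under 0.05 (12.6% and 10.5% of genes tested), and 786 and 535 did so at 2-fold or more (4.02% and 2.74%, 6.76% in all). With a 2-fold call in 1 state only and a 2-fold call of the difference, 284 line differences appeared among resistant cells (3.65% of the resistant 2-fold calls) and 277 vanished (3.69% of the parental ones). With a 2-fold call of opposite sign in the 2 states, 41 reversed their direction. A further 2068 genes had a 2-fold call in 1 contrast only without a 2-fold difference between contrasts and were not assigned. Among kept genes, 277 were wider apart and 307 were closer together by at least 2-fold in resistant cells.

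**Figure D1:**
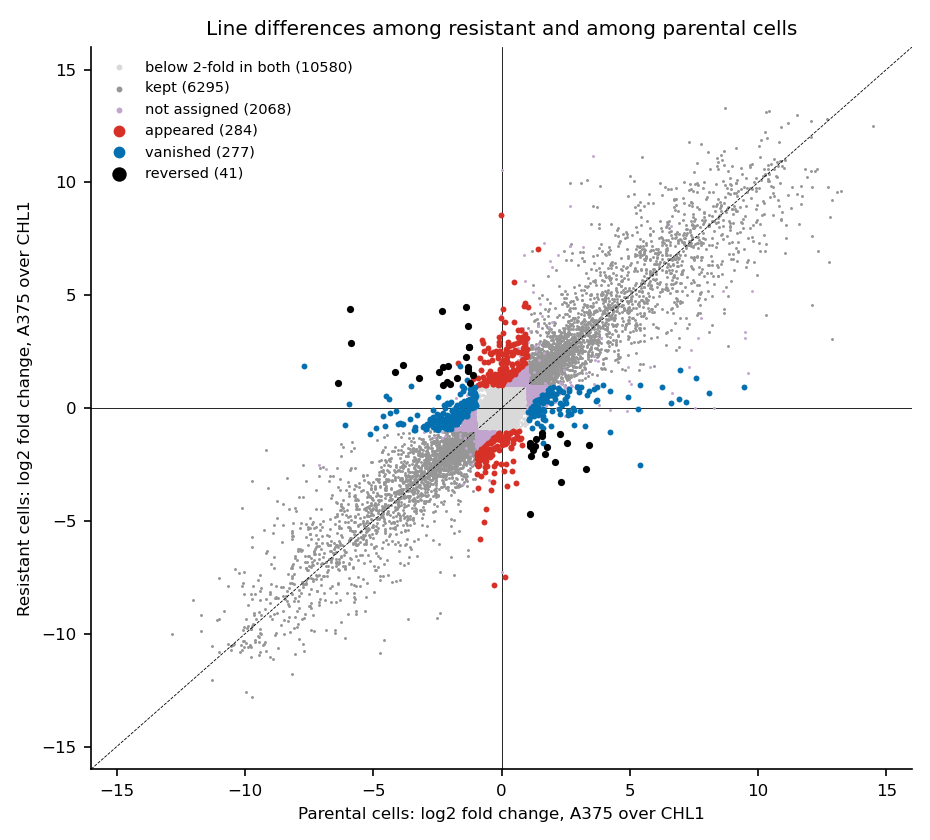
Log2 fold change of A375 over CHL1 per gene, among resistant cells (vertical axis) and among parental cells (horizontal axis), for the 19545 genes tested; colours mark the classes of line difference. Points lie along the diagonal with a Pearson correlation of 0.932, and the 284 appeared, 277 vanished and 41 reversed genes lie off it.

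The line differences with the largest fold among well-expressed genes ran from germline antigens to ubiquitin. UBB, which encodes polyubiquitin, had 907, 834 and 884 CPM in the 3 resistant A375 libraries, against 0.527, 0.895 and 0.505 CPM in the 3 resistant CHL1 libraries. Its log2 fold change was 10.39 ± 0.11 (SE; edgeR adjusted p = 9.2e-18), and the parental lines had 731, 756 and 749 CPM in A375 and 0.640, 0.519 and 0.634 CPM in CHL1. UBB thus stood near 0 in both states of CHL1; the gene has pseudogene copies, and how shared reads were counted is not given in the sources used here. PAGE5, a cancer-testis antigen of the X chromosome, had 115, 117 and 117 CPM in resistant A375 and 0.162, 0 and 0 CPM in resistant CHL1, a ratio of 2328-fold (95% counting interval 909 to 8547). XAGE1B and XAGE1A, near-identical neighbours whose reads may be split between them, averaged 98.8 and 81.0 CPM in resistant A375 and rested on 1 read each over the 3 resistant CHL1 libraries. IL13RA2, a decoy receptor for interleukin-13, had 489, 418 and 589 CPM in resistant A375 and 0.0811, 0.251 and 0.0721 CPM in resistant CHL1 (log2 11.78 ± 0.21, edgeR adjusted p = 8.9e-16). The others of the leading 10 were MMP1, HLA-DRA, HLA-DRB1, HAPLN1, a linker of hyaluronan matrix, and MEOX2, a homeobox factor. All 10 were higher in A375 in the parental contrast too, and for none of them was the difference between contrasts called.

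Genes of neurons and glia were among the 10 on the CHL1 side. UCHL1, a deubiquitinating hydrolase abundant in neurons, had 0.206, 0.161 and 0.109 CPM in resistant A375, against 346, 346 and 345 CPM in resistant CHL1 (log2 -11.04 ± 0.13, edgeR adjusted p = 2.3e-17). PTGDS, the prostaglandin D2 synthase of brain and melanocytes, had 0.240, 0.0323 and 0.109 CPM in resistant A375 and 233, 285 and 251 CPM in resistant CHL1 (log2 -10.94 ± 0.21). PMP2, a lipid-binding protein of myelin, had 0.172, 0.226 and 0.182 CPM in resistant A375 and 347, 290.3 and 295 CPM in resistant CHL1 (log2 -10.61 ± 0.17). No library of one line came near the range of the other for these genes. SEZ6L and LRRN1, membrane proteins of neurons, averaged 0.912 ± 0.167 and 1.38 ± 0.218 CPM in resistant A375, against 1428 ± 46.5 and 2133 ± 67.7 CPM in resistant CHL1. PRKCB, a protein kinase C, IL2RB, a subunit of the interleukin-2 receptor, WSCD2 and PHF24 followed, with ratios of 1825-fold (95% counting interval 782 to 5623), 1701-fold (95% counting interval 582 to 8250.0), 1872-fold (95% counting interval 1018 to 3904) and 2499-fold (95% counting interval 691 to 20640.0) in favour of resistant CHL1. Intervals on such ratios cover counting error only. For UCHL1 the gap was wider among resistant cells (difference -1.28, edgeR adjusted p = 0.023), a call lost under 2 alternatives. PXDN, given below, belongs with the leading genes of this side and also had a wider gap (difference -6.11). The gene CHL1, an adhesion molecule that shares the line's name, was also lower in resistant A375, at 0.215 ± 0.0657 CPM, against 186 ± 3.32 CPM in resistant CHL1.

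Some genes were read in 1 resistant line and hardly at all in the other. With at least 10 CPM on 1 side and at most 3 reads over the 3 libraries of the other, 55 of 14512 protein-coding genes were on in resistant A375 and 32 were on in resistant CHL1. By the same rule 33 of the 55 and 15 of the 32 were on in the same parental line and off in the other. Promoter windows of 300 bases, from 250 before to 50 after the start in RefSeq (GRCh38.p14), were found for 40 of the 55 and 23 of the 32. The dinucleotide CG, the site of DNA methylation in mammals, occurred a median of 9 times in the windows of the genes on in A375 and 23 times in those on in CHL1, against 25 over 11646 windows of protein-coding genes tested. At least 15 CG were held by 37.5% of the windows for A375, by 69.6% of those for CHL1 and by 78.4% of all. No methylation was measured, and the counts describe the letters only. The windows of 4 of the leading genes follow, with every CG in capitals, to show a germline antigen and a ubiquitin gene high in A375 beside a neuronal hydrolase and a prostaglandin synthase high in CHL1. None of the 4 is among the 55 or the 32 genes, so their windows do not illustrate those medians. All 4 lie on the plus strand of GRCh38.p14: PAGE5 at chrX:55220096-55220395, UBB at chr17:16381040-16381339, UCHL1 at chr4:41256678-41256977 and PTGDS at chr9:136977254-136977553.
PAGE5: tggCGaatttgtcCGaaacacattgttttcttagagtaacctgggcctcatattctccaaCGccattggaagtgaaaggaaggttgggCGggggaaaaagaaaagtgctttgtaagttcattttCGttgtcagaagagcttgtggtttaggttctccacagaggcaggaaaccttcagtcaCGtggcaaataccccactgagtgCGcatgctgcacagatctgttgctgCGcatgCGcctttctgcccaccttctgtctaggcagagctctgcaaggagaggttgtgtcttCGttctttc
UBB: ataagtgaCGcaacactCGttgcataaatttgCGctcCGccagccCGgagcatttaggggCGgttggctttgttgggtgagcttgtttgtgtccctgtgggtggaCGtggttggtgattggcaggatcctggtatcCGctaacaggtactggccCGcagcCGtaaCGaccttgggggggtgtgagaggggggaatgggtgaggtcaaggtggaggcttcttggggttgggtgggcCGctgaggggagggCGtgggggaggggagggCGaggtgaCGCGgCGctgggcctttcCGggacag
UCHL1: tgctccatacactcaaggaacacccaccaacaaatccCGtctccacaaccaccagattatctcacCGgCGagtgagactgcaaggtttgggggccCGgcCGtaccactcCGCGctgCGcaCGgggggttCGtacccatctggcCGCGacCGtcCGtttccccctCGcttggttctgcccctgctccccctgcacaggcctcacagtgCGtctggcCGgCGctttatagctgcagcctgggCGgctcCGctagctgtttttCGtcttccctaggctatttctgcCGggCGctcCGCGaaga
PTGDS: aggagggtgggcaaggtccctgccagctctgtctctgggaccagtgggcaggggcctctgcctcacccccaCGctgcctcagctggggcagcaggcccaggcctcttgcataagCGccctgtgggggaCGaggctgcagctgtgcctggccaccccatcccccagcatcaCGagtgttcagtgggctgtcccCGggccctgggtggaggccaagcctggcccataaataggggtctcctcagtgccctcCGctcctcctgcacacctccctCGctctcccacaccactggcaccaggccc
They hold 10, 18, 25 and 7 CG, and 85.2%, 72.6%, 53.2% and 89.3% of all windows hold at least as many as PAGE5, UBB, UCHL1 and PTGDS in that order.

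Among the genes of the drug's own pathway, the targeted kinases parted. CDK6 had 309, 302 and 279 CPM in resistant A375 and 36.9, 31.6 and 40.8 CPM in resistant CHL1, with 317, 334 and 278 CPM in parental A375 and 15.01, 14.5 and 12.1 CPM in parental CHL1. The groups did not overlap, and the log2 fold change of A375 over CHL1 was 3.03 ± 0.10 among resistant cells (edgeR adjusted p = 4.5e-13) and 4.48 ± 0.11 among parental cells. The gap was narrower among resistant cells (difference -1.45 ± 0.14, adjusted p = 3.9e-06); the change from parental to resistant was -0.06 in A375 and 1.39 in CHL1 on the log2 scale. CDK4 had 201, 196 and 194 CPM in resistant A375 and 199, 199.5 and 195 CPM in resistant CHL1, ranges that overlapped (log2 -0.0047 ± 0.05, adjusted p = 0.94). With upper-quartile scaling, which moved the median of all genes by 0.13 toward A375, it was 0.12 (adjusted p = 0.027); RLE scaling moved that median by -0.01.

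Cyclin E1 went the other way. CCNE1, whose product activates CDK2, had 30.4, 27.7 and 29.7 CPM in resistant A375 and 62.9, 65.3 and 64.5 CPM in resistant CHL1, against 15.8, 19.1 and 17.7 CPM in parental A375 and 21.3, 21.7 and 20.8 CPM in parental CHL1. Both resistant groups stood above every parental library, and resistant CHL1 above all. The log2 fold change was -1.14 ± 0.07 among resistant cells and -0.28 ± 0.07 among parental cells, and the difference was -0.86 ± 0.10 (edgeR adjusted p = 2.6e-05). CCNE2 was lower in A375 in both states, at 26.4 ± 2.90 CPM in resistant A375 and 53.9 ± 0.909 CPM in resistant CHL1 (log2 -1.03, adjusted p = 2.7e-07). CDK2 did not pass, at 106 ± 4.30 CPM in resistant A375 and 104 ± 3.24 CPM in resistant CHL1 (adjusted p = 0.8). Of the D-type cyclins, CCND1 was higher in resistant A375 (log2 0.48 ± 0.08) and CCND3 was lower (log2 -1.04 ± 0.07), and neither difference between contrasts was called.

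Of the kinase inhibitors, 3 were lower in resistant A375. CDKN2B was at 0 reads in all 3 resistant A375 libraries and had 7.51, 8.35 and 8.29 CPM in resistant CHL1, at least 236-fold higher in CHL1, with the bound set at 3 reads over the A375 group. CDKN2A averaged 3.00 ± 0.554 CPM in resistant A375 and 23.7 ± 1.10 CPM in resistant CHL1 (log2 -2.98 ± 0.16). CDKN1B averaged 34.5 ± 2.82 CPM in resistant A375 and 87.9 ± 0.854 CPM in resistant CHL1 (log2 -1.35 ± 0.07). The difference between contrasts was not called for CDKN2B, CDKN2A or CDKN1B (edgeR adjusted p = 0.17, 0.36 and 0.057). CDKN1A, which encodes p21, was higher, with 225, 254 and 272 CPM in resistant A375 and 23.4, 28.6 and 28.5 CPM in resistant CHL1. It had 149, 140.4 and 153 CPM in parental A375 and 27.1, 22.8 and 24.3 CPM in parental CHL1, so the line gap was wider among resistant cells by 0.64 ± 0.12 (edgeR adjusted p = 0.0016). RB1 had 77.4, 71.7 and 74.2 CPM in resistant A375 and 92.7, 90.4 and 89.8 CPM in resistant CHL1, which did not overlap, against 119, 99.0 and 103 CPM in parental A375 and 105, 108 and 104 CPM in parental CHL1, which did. Its log2 fold change was -0.29 ± 0.06 among resistant cells (adjusted p = 6.1e-04) and 0.02 ± 0.06 among parental cells, with a difference of -0.31 ± 0.09 (adjusted p = 0.02). RB1 lies on chromosome 13, whose protein-coding genes had a median difference of -0.28. Whether RB1 moved apart from its chromosome was not tested. E2F1, an activator of S-phase genes, was lower in resistant A375 (log2 -0.46 ± 0.13, adjusted p = 0.0055). E2F4, a repressor of the family, was higher (log2 1.61 ± 0.05).

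Of 25 tested members of a list of the CDK4/6 and RB axis, 6 were higher and 17 lower in resistant A375, against 39.6% and 37.4% of all genes. The difference between contrasts was called up in 2 and down in 7, against 12.6% and 10.5% of all genes. Of the 7, 3 lie on chromosomes 3, 10, 13, 19 and X, which are described below, as do 3 of the 25 tested. The median log2 fold change was -0.46, against 0.05 over all genes. The proliferation genes parted less: MKI67, a marker of cycling cells, had 393, 315 and 316 CPM in resistant A375 and 366, 279.8 and 319 CPM in resistant CHL1, which overlapped (adjusted p = 0.49). Of 35 genes of G1/S and DNA replication, 13 were higher and 16 lower, with 3 and 3 at 2-fold, and of 40 genes of G2/M and mitosis 20 were higher and 9 lower, with 3 and 1 at 2-fold, against 21.1% and 18.8% of all genes. LIG1, the replicative ligase, and POLD1, a replicative polymerase, were higher in resistant A375 by 1.45 ± 0.06 and 1.40 ± 0.07 on the log2 scale, and both gaps were wider than among parental cells (differences 0.86 ± 0.08 and 0.69 ± 0.10). Both genes lie on chromosome 19, as do, among others named in this report, CCNE1 above and BAX, BBC3, PRMT1, FTL and ZNF208 below. That chromosome's median difference over protein-coding genes was 0.19. CHAF1B, a histone chaperone, and POLE, another polymerase, were lower in resistant A375, by log2 -1.63 ± 0.06 and -1.13 ± 0.07.

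**Figure D2:**
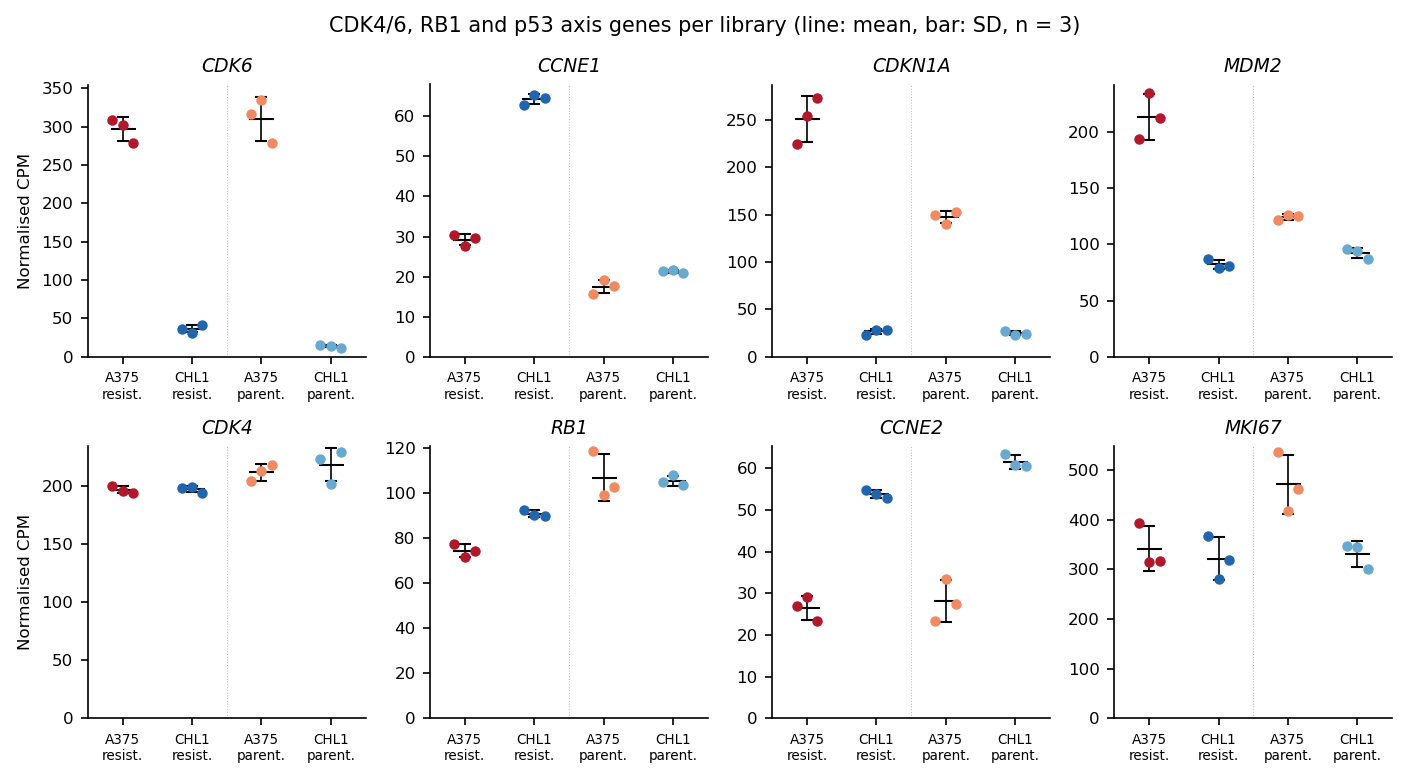
Normalised CPM (vertical axes, linear from 0) of 8 genes of the CDK4/6, RB1 and p53 axis in each library of resistant A375, resistant CHL1, parental A375 and parental CHL1; points are libraries, the line is the mean and the bar the SD (n = 3). CDK6, CDKN1A and MDM2 stand higher in resistant A375, CCNE1, CCNE2 and RB1 in resistant CHL1, and CDK4 and MKI67 overlap.

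The targets of p53 were higher in resistant A375 as a group, and the gap was wider than among parental cells. Of 34 tested members, 29 were higher and 2 lower in resistant A375, 24 and 1 at 2-fold (39.6% and 37.4% of all genes, and 21.1% and 18.8% at 2-fold), with a median log2 fold change of 1.84 among resistant cells and 1.38 among parental cells. The difference between contrasts was called up in 23 of 34 and down in 0, against 12.6% and 10.5% of all genes tested; 5 of the 23, and 7 of the 34 tested, lie on chromosomes 3, 10, 13, 19 and X, which are described below. MDM2, the ubiquitin ligase of p53, had 194, 234 and 212 CPM in resistant A375 and 86.9, 79.2 and 80.6 CPM in resistant CHL1, against 122, 126 and 125 CPM in parental A375 and 95.5, 93.9 and 87.3 CPM in parental CHL1. Its log2 fold change was 1.37 ± 0.07 among resistant cells and 0.43 ± 0.07 among parental cells (difference 0.94 ± 0.09, edgeR adjusted p = 5.6e-06). BAX, which permeabilises mitochondria in apoptosis, had 198, 219 and 204 CPM in resistant A375 and 29.9, 34.9 and 32.8 CPM in resistant CHL1 (log2 2.67 ± 0.08, difference 1.32 ± 0.11, adjusted p = 1.5e-06). BBC3, which encodes the BH3-only protein PUMA, averaged 15.8 ± 1.57 CPM in resistant A375 and 1.55 ± 0.288 CPM in resistant CHL1 (log2 3.34 ± 0.17, difference 1.57 ± 0.25). FAS, a death receptor, had 18.6, 20.7 and 23.4 CPM in resistant A375, and its reads in resistant CHL1 were 8 in all, a ratio of 209-fold (95% counting interval 106 to 486). PLK2, a p53-induced kinase, had 202 ± 3.42 CPM in resistant A375 and 7.62 ± 1.64 CPM in resistant CHL1 (log2 4.73 ± 0.13), with no called difference between contrasts (adjusted p = 0.56). CYFIP2 was lower in resistant A375, at 59.6 CPM, against 341 CPM in resistant CHL1.

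MDM4, the partner of MDM2, was higher in resistant A375, at 42.1 ± 2.74 CPM, against 29.7 ± 4.59 CPM in resistant CHL1 (log2 0.51 ± 0.10, edgeR adjusted p = 2.1e-04). PRMT5, an arginine methyltransferase that acts on the splicing of MDM4, had 140.5, 138 and 141 CPM in resistant A375 and 112, 109.8 and 113 CPM in resistant CHL1 (log2 0.32 ± 0.05), and for neither gene was the difference between contrasts called. PRMT1, another member of the family, had 401 ± 14.2 CPM in resistant A375 and 149.6 ± 6.07 CPM in resistant CHL1 (log2 1.42 ± 0.05, difference 0.76 ± 0.07), and it lies on chromosome 19. Of 17 tested members of the BCL2 family, 6 were higher and 11 lower in resistant A375, against 39.6% and 37.4% of all genes. BOK, a pro-apoptotic member, was lower, at 8.77 ± 0.984 CPM, against 132 ± 9.23 CPM in resistant CHL1 (log2 -3.91 ± 0.11). BCL2 itself was lower by log2 -1.49 ± 0.10.

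Most lineage and state genes kept their line differences among resistant cells. SOX10, the neural crest factor, had 351, 203 and 346 CPM in resistant A375 and 932, 1105 and 1039.9 CPM in resistant CHL1 (log2 -1.77 ± 0.18, edgeR adjusted p = 2.2e-07). ERBB3, a receptor that binds neuregulin, had 175, 83.7 and 154 CPM in resistant A375 and 542, 591 and 546 CPM in resistant CHL1 (log2 -2.03 ± 0.24). The second resistant A375 library was the lowest of its group for both genes. MITF, the master regulator of melanocytes, had 32.7, 41.5 and 26.5 CPM in resistant A375 and 24.99, 25.1 and 26.7 CPM in resistant CHL1, and its adjusted p of 0.012 (edgeR, log2 0.39 ± 0.13) was 0.14 without the second resistant A375 library (log2 0.18), 0.062 without the first resistant CHL1 library and 0.051 without the second. AXL, a receptor tyrosine kinase of dedifferentiated melanoma, had 439, 486 and 423 CPM in resistant A375 and 28.4, 31.4 and 30.9 CPM in resistant CHL1 (log2 3.89 ± 0.11). EGFR, the epidermal growth factor receptor, had 48.6, 56.5 and 43.7 CPM in resistant A375 and 7 reads in all in resistant CHL1, a ratio of 572-fold (95% counting interval 277 to 1424). BRAF averaged 21.2 ± 0.647 CPM in resistant A375 and 23.6 ± 1.51 CPM in resistant CHL1 (log2 -0.15 ± 0.07, adjusted p = 0.048), and that call was lost under 10 of the alternatives tried, among them DESeq2 (adjusted p = 0.055). The called difference between contrasts for BRAF (0.32 ± 0.09, adjusted p = 0.021) was lost under 8 of them.

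NGFR, the p75 neurotrophin receptor of neural crest-like melanoma cells, changed sides. It had 16.2, 17.2 and 19.9 CPM in resistant A375 and 68.0, 78.8 and 70.9 CPM in resistant CHL1, but 116, 134 and 91.9 CPM in parental A375 and 38.6, 32.8 and 35.4 CPM in parental CHL1. The log2 fold change was -2.03 ± 0.12 among resistant cells and 1.68 ± 0.12 among parental cells, and the difference was -3.71 ± 0.17 (edgeR adjusted p = 6.6e-09). Within the lines NGFR changed by -2.68 in A375 and by 1.03 in CHL1 from parental to resistant.

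Of 25 tested genes of melanocyte lineage and pigment, 7 were higher and 16 lower in resistant A375, 4 and 15 at 2-fold, with a median log2 fold change of -2.02; over all genes 39.6% were higher and 37.4% lower, 21.1% and 18.8% at 2-fold. OCA2, a melanosomal transporter, had 0.515, 0.710 and 0.874 CPM in resistant A375 and 68.4, 63.3 and 69.2 CPM in resistant CHL1 (log2 -6.58 ± 0.14). DCT, an enzyme of melanin synthesis, had 0.275, 0.419 and 0.510 CPM in resistant A375 and 19.2, 19.3 and 18.6 CPM in resistant CHL1; its gap was narrower than among parental cells (difference 3.37 ± 0.46, edgeR adjusted p = 1.0e-04), where parental CHL1 averaged 44.4 ± 2.82 CPM. Of 27 genes of the dedifferentiated state, 19 were higher and 5 lower in resistant A375, with a median of 2.30. TNC, a matrix protein, had 944, 592 and 804 CPM in resistant A375 and 1.10, 1.33 and 1.23 CPM in resistant CHL1 (log2 9.32 ± 0.28). IL6 went against the list, with 0.137, 0.129 and 0.0728 CPM in resistant A375 and 26.8, 25.5 and 30.5 CPM in resistant CHL1. In 26 genes of MAPK pathway output, 18 were higher and 5 lower. PHLDA1 had 553 ± 33.7 CPM in resistant A375 and 29.6 ± 1.04 CPM in resistant CHL1 (log2 4.22 ± 0.06), while FOS, an immediate early factor, was lower in resistant A375 at 4.02, 3.87 and 5.21 CPM, against 38.7, 89.9 and 55.3 CPM in resistant CHL1.

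Genes of MHC class II, which present antigen to helper T cells, were higher in resistant A375. All 13 tested genes of the list had a 2-fold call toward A375, 12 of them also among parental cells, and the median log2 fold change was 7.09. Of all genes, 21.1% had such a call among resistant cells and 19.7% among parental cells. HLA-DRA, the alpha chain of HLA-DR, had 260.3, 165 and 254 CPM in resistant A375 and 0.203, 0.0358 and 0.108 CPM in resistant CHL1, a ratio of 2004-fold (95% counting interval 1056 to 4384). CD74, the invariant chain, had 1269.6, 890.3 and 1193 CPM in resistant A375 and 0.527, 0.967 and 1.01 CPM in resistant CHL1 (log2 10.36 ± 0.26, edgeR adjusted p = 3.1e-14). The second resistant A375 library was the lowest of its 3 for both. HLA-DRB1 and HLA-DRB5, whose reads may be shared, averaged 76.6 ± 14.5 and 46.2 ± 9.27 CPM in resistant A375. Class I genes did not part this way: of 20 tested, 8 were higher and 9 lower in resistant A375, close to the 39.6% and 37.4% of all genes, with HLA-C at 57.9 ± 9.37 CPM in resistant A375 and 209 ± 8.33 CPM in resistant CHL1 (log2 -1.85 ± 0.10).

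Cancer-testis antigens, germline genes that tumours can express, were mostly on the A375 side. For 7 of them the line contrast moved toward CHL1 among resistant cells, and 1 tested member of the list reversed its direction. Of 21 tested, 17 were higher and 4 lower in resistant A375, against 20 and 1 among parental cells; of all genes 39.6% were higher and 37.4% lower among resistant cells. The median log2 fold change was 7.49, or 6.47 with the 2 members at 0 in a resistant group set to their bound. The difference between contrasts was called down in 7 and up in 0, against 10.5% and 12.6% of all genes. All 7 lie on the X chromosome, as do 20 of the 21 tested. MAGEA4 had 438, 425 and 436 CPM in resistant A375 and 0.365, 0.466 and 0.577 CPM in resistant CHL1, with 969.6, 993 and 992 CPM in parental A375 (difference -1.84 ± 0.22, edgeR adjusted p = 3.5e-05). PRAME, on chromosome 22, had 178, 151 and 171 CPM in resistant A375 and 0.122, 0.215 and 0.216 CPM in resistant CHL1 (log2 9.77 ± 0.20), with no called difference between contrasts. Reads of MAGEA genes and of CTAG1B may be shared with near-identical copies.

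HOX genes, which set position along the body axis, were also mostly higher in A375. Of 35 tested, 25 were higher and 4 lower in resistant A375, against 39.6% and 37.4% of all genes, with a median log2 fold change of 2.11. The difference between contrasts was called up in 13 and down in 0, against 12.6% and 10.5% of all genes. HOXB2 had 69.3, 49.5 and 64.7 CPM in resistant A375 and 1.74, 1.76 and 1.69 CPM in resistant CHL1 (log2 5.14 ± 0.15). HOXC10 had 42.2 ± 2.21 CPM in resistant A375 and 1.45 ± 0.352 CPM in resistant CHL1 (log2 4.85 ± 0.12). HOXB7 was the opposite, at 0 reads in resistant A375 and 8.03, 8.95 and 9.12 CPM in resistant CHL1, at least 255-fold higher in CHL1 against a bound of 3 reads over the group.

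The matrix and its proteases divided the lines by member. Of 27 metalloproteinases and inhibitors, 19 were higher and 8 lower in resistant A375, against 39.6% and 37.4% of all genes, with a median log2 fold change of 5.15, or 4.54 with 4 members at their bound. MMP1, the interstitial collagenase, had 99.5, 103 and 184 CPM in resistant A375 and 4 reads in all in resistant CHL1, a ratio of 2559-fold (95% counting interval 999 to 9392). MMP9, a gelatinase, had 11.2, 16.6 and 23.8 CPM in resistant A375 and 1 read in resistant CHL1, with 0.150, 0.444 and 0.183 CPM in parental A375; the difference between contrasts was called (edgeR adjusted p = 0.036), and that call was lost under 8 alternatives, among them leaving out any 1 parental CHL1 library. TIMP3, an inhibitor of these proteases, had 1254, 844 and 1301 CPM in resistant A375 and 3.77, 4.12 and 3.39 CPM in resistant CHL1 (log2 8.23 ± 0.21). Collagens stood on both sides, with 15 higher and 13 lower of 32, near the shares of all genes. COL11A1, a fibrillar collagen of cartilage, had 5.02 ± 0.526 CPM in resistant A375 and 4462 ± 184 CPM in resistant CHL1 (log2 -9.79 ± 0.29). COL8A1 had 70.2 ± 13.1 CPM in resistant A375 and 0.331 ± 0.183 CPM in resistant CHL1 (log2 7.69 ± 0.22, difference 3.25 ± 0.51). COL1A2, a chain of type I collagen, had 13.5, 15.6 and 13.3 CPM in resistant A375, 2 reads in all in resistant CHL1 and 0.188, 0.814 and 0.147 CPM in parental A375, and its difference was not called (adjusted p = 0.13).

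PXDN, which encodes a peroxidase that cross-links collagen IV, had 0.996, 0.935 and 0.510 CPM in resistant A375 and 1432, 1594 and 1541 CPM in resistant CHL1. Parental A375 had 55.1, 37.1 and 71.2 CPM and parental CHL1 1436, 1422 and 1513 CPM, and the gap was wider among resistant cells (difference -6.11 ± 0.30, edgeR adjusted p = 1.2e-08). Of 18 integrin genes, 10 were higher and 7 lower in resistant A375, against 39.6% and 37.4% of all genes, and the difference was called up in 7 and down in 2, against 12.6% and 10.5%. ITGA3, a laminin receptor subunit, had 451 ± 17.3 CPM in resistant A375 and 2.84 ± 0.497 CPM in resistant CHL1 (log2 7.30 ± 0.12). ITGA1, a collagen receptor subunit, had 240.1, 224 and 223 CPM in resistant A375 and 8.15, 8.35 and 8.62 CPM in resistant CHL1 (log2 4.77 ± 0.20, difference 1.63 ± 0.27, adjusted p = 4.9e-04). ITGA9 was lower, at 5.86 ± 4.30 CPM in resistant A375 and 66.997 ± 3.74 CPM in resistant CHL1.

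Among receptor tyrosine kinases, 20 of 43 were higher and 19 lower in resistant A375, near the 39.6% and 37.4% of all genes. FGFR2, a fibroblast growth factor receptor, had 0.687, 1.29 and 1.24 CPM in resistant A375 and 142, 134 and 132 CPM in resistant CHL1 (log2 -6.98 ± 0.13). MERTK, a receptor of the AXL family, had 0.721, 0.645 and 0.655 CPM in resistant A375 and 91.8, 88.8 and 82.8 CPM in resistant CHL1 (log2 -7.02 ± 0.13). EPHA4, an ephrin receptor, was on the A375 side, at 30.7, 29.4 and 33.6 CPM in resistant A375 and 1 read in resistant CHL1. Cytokines and chemokines had 15 higher and 7 lower of 22. CXCL8, which draws neutrophils, had 59.2, 44.5 and 43.0 CPM in resistant A375 and 0.487, 0.466 and 0.865 CPM in resistant CHL1 (log2 6.31 ± 0.25). CXCL12, the ligand of CXCR4, had 0.206, 0.0645 and 0.182 CPM in resistant A375 and 135, 142 and 154 CPM in resistant CHL1 (log2 -9.88 ± 0.14). The CXCL12 gap was narrower among resistant cells, with 305 ± 1.78 CPM in parental CHL1 (difference 1.83 ± 0.52, edgeR adjusted p = 0.025; 0.17 without the first resistant A375 library and 0.10 without the last). Of 24 YAP and TAZ targets 15 were higher and 6 lower, and the difference was called down in 5 and up in 0, against 10.5% and 12.6% of all genes. MYOF, a membrane repair protein, had 282 ± 40.7 CPM in resistant A375 and 6.73 ± 1.37 CPM in resistant CHL1, with 549 ± 48.9 CPM in parental A375. In 31 genes of TGF-beta and BMP signalling, 12 were higher and 17 lower. ID4, an inhibitor of bHLH factors, had 0.683 ± 0.0815 CPM in resistant A375 and 592 ± 34.1 CPM in resistant CHL1 (log2 -9.75 ± 0.15).

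Several metabolic lists leaned toward CHL1. Of 36 lysosomal genes, 6 were higher and 28 lower in resistant A375, against 39.6% and 37.4% of all genes, with a median log2 fold change of -0.90, against -0.68 among parental cells; the difference was called down in 15 and up in 5, against 10.5% and 12.6% of all genes, and 5 of the 15, and 10 of the 36 tested, lie on chromosomes 3, 10, 13, 19 and X. ASAH1, acid ceramidase, had 27.9, 25.9 and 29.2 CPM in resistant A375 and 1207, 1273 and 1264 CPM in resistant CHL1 (log2 -5.50 ± 0.07, edgeR adjusted p = 5.3e-17). CTSD, the protease cathepsin D, had 135 ± 3.32 CPM in resistant A375 and 741 ± 67.1 CPM in resistant CHL1 (log2 -2.46 ± 0.07, difference -0.79 ± 0.09). TFEB, a factor that drives lysosomal genes, had 1.07 ± 0.143 CPM in resistant A375 and 13.7 ± 2.05 CPM in resistant CHL1 (difference -1.11 ± 0.24). Of 24 genes of cholesterol synthesis and uptake, 2 were higher and 21 lower. Of 27 ATF4 targets and amino acid stress genes, 7 were higher and 14 lower, with the difference called down in 9 and up in 2, against 10.5% and 12.6% of all genes. CTH and CBS, the enzymes of transsulfuration, had 5.93 ± 1.16 and 14.9 ± 2.06 CPM in resistant A375 and 66.2 ± 3.80 and 112 ± 3.34 CPM in resistant CHL1.

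Genes of the cytosolic ribosome leaned toward A375, with 49 higher and 7 lower of 63, against 39.6% and 37.4% of all genes, and a median of 0.62, and 12 of 13 mitochondrially encoded mRNAs were lower, with a median of -0.48. The difference for ribosomal proteins was called up in 16 and down in 5, against 12.6% and 10.5% of all genes; 14 of the 16, 4 of the 5 and 22 of the 63 tested lie on chromosomes 3, 10, 13, 19 and X. FTL, the ferritin light chain, had 1545, 2153 and 2092 CPM in resistant A375 and 112, 107 and 109.7 CPM in resistant CHL1 (log2 4.14 ± 0.14, difference 0.94 ± 0.17, edgeR adjusted p = 0.001). In hypoxia and glycolysis 19 were higher and 7 lower of 32, among interferon response genes 20 and 13 of 44, and among axon guidance genes 24 and 17 of 45. The remaining lists had members on both sides: 22 higher and 12 lower of 36 laminins and other matrix genes, 13 and 7 of 25 cadherins and adhesion genes, 15 and 15 of 32 WNT genes, 10 and 8 of 23 NRF2 targets, 11 and 14 of 29 ABC transporters, and 9 and 2 of 15 genes of the PRMT family and its partners. SEMA3A, a secreted guidance cue, had 133 ± 4.93 CPM in resistant A375 and 0.220 ± 0.151 CPM in resistant CHL1 (log2 9.18 ± 0.19).

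**Figure D3:**
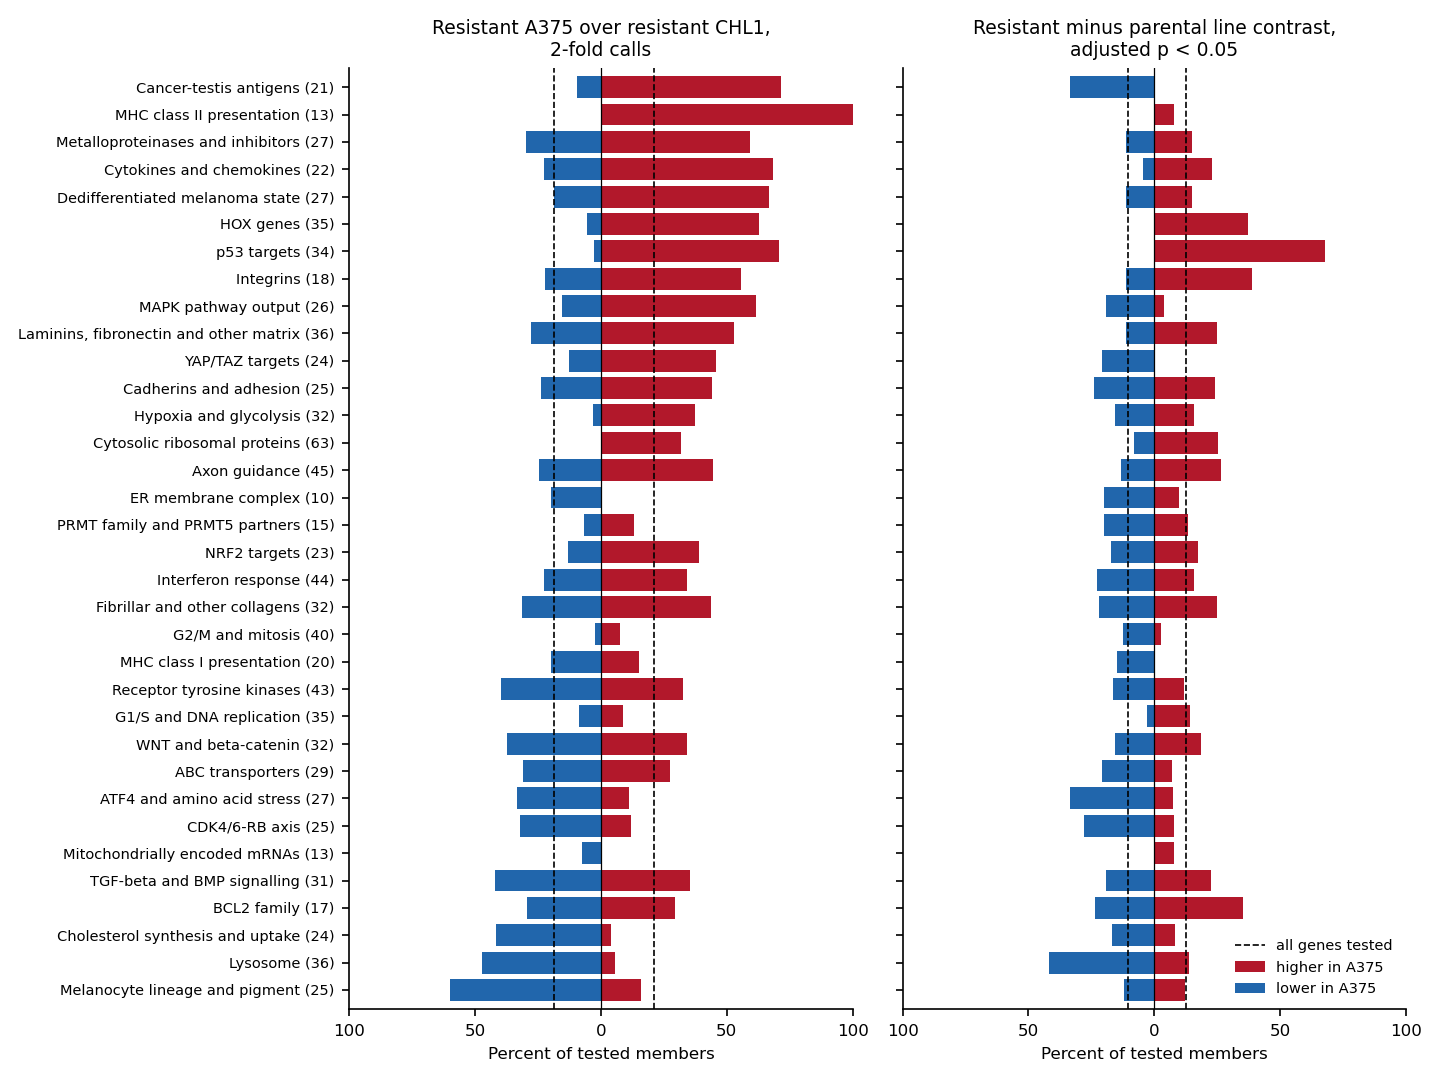
Percent of tested members (number in brackets) of 34 gene lists with a 2-fold call between resistant A375 and resistant CHL1 (left) and with a called difference between the resistant and the parental line contrast (right); red bars run right for higher in A375, blue bars left for lower, and dashed lines mark all genes tested. All 13 genes of MHC class II have a call on the left, and p53 targets stand at 23 of 34 on the right.

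Line differences that appeared among resistant cells included 173 genes higher in A375 and 111 higher in CHL1. TENM1, a teneurin of neuronal synapses, had 45.3, 32.0 and 31.2 CPM in resistant A375 and 4.99, 2.94 and 3.06 CPM in resistant CHL1, against 3.80, 1.55 and 1.98 CPM in parental A375 and 2.95, 1.96 and 2.14 CPM in parental CHL1. The parental groups overlapped and the resistant ones did not, with a difference of 3.27 ± 0.42 (edgeR adjusted p = 5.6e-05). BIRC3, an inhibitor of apoptosis induced by NF-kappaB, had 6.42, 12.5 and 15.9 CPM in resistant A375 and 1.34, 1.65 and 1.66 CPM in resistant CHL1 (difference 2.29 ± 0.49). PDE5A, a phosphodiesterase of cyclic GMP, had 17.1, 13.2 and 12.999 CPM in resistant A375 and 4.62, 5.23 and 5.41 CPM in resistant CHL1 (difference 2.03 ± 0.18). NAP1L3, SCUBE3 and TMTC1 completed the 6 named by size on that side, with differences of 2.50, 2.11 and 2.11.

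On the CHL1 side, each of the 6 genes was lower in resistant A375 than in any library of the other 3 groups. MBNL3, a splicing regulator on the X chromosome, had 0.0687, 0.0968 and 0 CPM in resistant A375 and 16.1, 13.8 and 13.1 CPM in resistant CHL1, against 11.3, 12.2 and 10.7 CPM in parental A375 and 14.0, 13.6 and 14.3 CPM in parental CHL1. The resistant A375 value rests on 5 reads, a ratio of 250.2-fold (95% counting interval 107 to 772) in favour of resistant CHL1. STK26, a kinase of the germinal centre family, had 1.68, 1.26 and 1.78 CPM in resistant A375 and 35.6, 34.2 and 36.0 CPM in resistant CHL1, with 24.1, 27.997 and 27.9 CPM in parental A375 (difference -3.87 ± 0.13, edgeR adjusted p = 2.7e-10). LDOC1, also on the X chromosome, had 3.16, 4.35 and 5.57 CPM in resistant A375 and 53.4, 54.7 and 51.9 CPM in resistant CHL1 (difference -3.19 ± 0.22). BASP1, a membrane protein of growth cones, had 1.72, 1.65 and 1.78 CPM in resistant A375 and 54.5, 62.3 and 53.4 CPM in resistant CHL1. Parental A375 varied, at 17.4, 12.4 and 47.1 CPM. LPAR1, a receptor for lysophosphatidic acid, and AFAP1L2 had differences of -2.66 and -2.90. Within A375 the change from parental to resistant was -7.53 for MBNL3, -4.09 for STK26 and -3.33 for LDOC1, and within CHL1 it was 0.04, -0.22 and -0.14. The chromosome is named for some of these genes only. On the X chromosome 17.0% of protein-coding genes had a 2-fold difference between contrasts, against 7.66% of all, as given below.

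Of the differences that vanished, 114 had been higher in parental A375 and 163 in parental CHL1. ARHGAP4, a GTPase-activating protein on the X chromosome, had 0.755, 0.839 and 0.473 CPM in resistant A375 and 0.406, 0.681 and 0.685 CPM in resistant CHL1, against 41.1, 36.5 and 40.5 CPM in parental A375 and 0.356, 0.371 and 0.476 CPM in parental CHL1. Only parental A375 stood apart, and the difference was -6.39 ± 0.36 (edgeR adjusted p = 3.9e-08). TMPRSS15, the enteropeptidase, had 22.3, 21.6 and 71.8 CPM in parental A375 and under 1 CPM in the other groups; 1 parental A375 library stood above the other 2, and the difference of -7.42 ± 1.99 had an adjusted p of 0.014, or 0.054 without the second resistant CHL1 library. KRT14, a keratin of basal epithelia, had 4.43, 4.42 and 4.48 CPM in resistant A375 and 2.72, 4.48 and 3.57 CPM in resistant CHL1, against 21.7, 27.3 and 17.96 CPM in parental A375 (difference -3.40 ± 0.32). PKP2, a desmosomal plakophilin, SMOC1, a matricellular protein, and DNAH2, an axonemal dynein, also lost their 2-fold call toward A375, with differences of -2.97, -4.05 and -2.88. For SMOC1 the line contrast among resistant cells had turned toward CHL1 (log2 -0.81, edgeR adjusted p = 0.044). That call was lost under 8 alternatives, among them leaving out the second or the last library of either resistant line.

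The parental CHL1 side of the vanished genes held ZNF208, a zinc finger gene of chromosome 19. It had 41.9, 49.2 and 42.3 CPM in resistant A375 and 23.2, 19.95 and 23.7 CPM in resistant CHL1, against 8.72, 8.03 and 6.71 CPM in parental A375 and 23.3, 23.8 and 20.4 CPM in parental CHL1. The CHL1 libraries of both states overlapped and the A375 libraries stood on either side of them, and with a log2 fold change of 1.00 ± 0.10 among resistant cells the gene fell just short of a 2-fold call in the new direction (difference 2.52 ± 0.15, edgeR adjusted p = 5.3e-08). DTNA, a dystrobrevin, had 10.3, 7.71 and 9.90 CPM in resistant A375 and 13.2, 12.5 and 13.3 CPM in resistant CHL1, with 1.54, 0.740 and 0.953 CPM in parental A375 (difference 3.07 ± 0.24). FOLH1, the prostate-specific membrane antigen, had 6.18, 3.97 and 6.77 CPM in resistant A375, 11.2, 11.4 and 10.5 CPM in resistant CHL1 and 0.790, 0.555 and 0.293 CPM in parental A375 (difference 2.39 ± 0.33). The resistant groups of DTNA and FOLH1 did not overlap, with CHL1 higher. Vanished here means that a 2-fold call was lost, and a smaller line difference can remain. PTPRZ1, LRP3 and LRRC4B had differences of 2.23, 2.22 and 2.17. Whether PTPRZ1 and LRP3 still differed between resistant lines was not settled: their adjusted p of 0.078 and 0.067 became 0.0019 and 0.0049 without the first resistant A375 library. For LRRC4B the adjusted p of 0.014 became 0.051 without the second resistant A375 library.

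Line differences that reversed were few, 24 toward A375 and 17 toward CHL1 among resistant cells. PTGS2, the inducible cyclooxygenase, had 8.14, 23.9 and 11.5 CPM in resistant A375 and 0.527, 0.681 and 0.973 CPM in resistant CHL1, against 0.978, 2.03 and 0.733 CPM in parental A375 and 6.12, 6.75 and 5.87 CPM in parental CHL1. The groups did not overlap in either state, and the difference was 6.62 ± 0.60 (edgeR adjusted p = 2.7e-06). BMP7, a bone morphogenetic protein, had 2.54, 1.94 and 2.55 CPM in resistant A375 and 0.568, 0.788 and 0.505 CPM in resistant CHL1, with 1.69, 0.925 and 0.843 CPM in parental A375 and 16.8, 16.2 and 16.4 CPM in parental CHL1 (difference 5.73 ± 0.31). UTS2, the peptide urotensin 2, had 12.4, 14.4 and 13.3 CPM in parental CHL1 and under 1 CPM in the other groups, so its resistant ratio of 8.25-fold (95% counting interval 2.54 to 42.5) lies among few reads. SPRR2D, a protein of the cornified envelope, LUM, a proteoglycan of collagen matrix, and PPP4R3C had differences of 3.98, 2.61 and 3.07.

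In the opposite sense, ITGB4, the integrin subunit of hemidesmosomes, had 4.81, 3.10 and 5.06 CPM in resistant A375 and 20.9, 23.5 and 22.5 CPM in resistant CHL1, against 83.0, 45.3 and 105 CPM in parental A375 and 14.97, 17.0 and 22.5 CPM in parental CHL1. MAGEA10, a cancer-testis antigen, had 0.687, 0.355 and 0.291 CPM in resistant A375 and 2.39, 2.94 and 3.35 CPM in resistant CHL1, with 34.0, 35.4 and 43.9 CPM in parental A375 and 4.09, 3.78 and 3.65 CPM in parental CHL1. Parental A375 was the highest of the 4 groups for both genes, as it was for NGFR above. SMARCA1, a chromatin remodeller, BST1, an ectoenzyme of NAD, and MME, the peptidase neprilysin, had differences of -2.76, -3.42 and -2.97. The edgeR adjusted p of the difference was 1.2e-06 for ITGB4, 9.1e-09 for MAGEA10 and 2.7e-07 for SMARCA1.

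**Figure D4:**
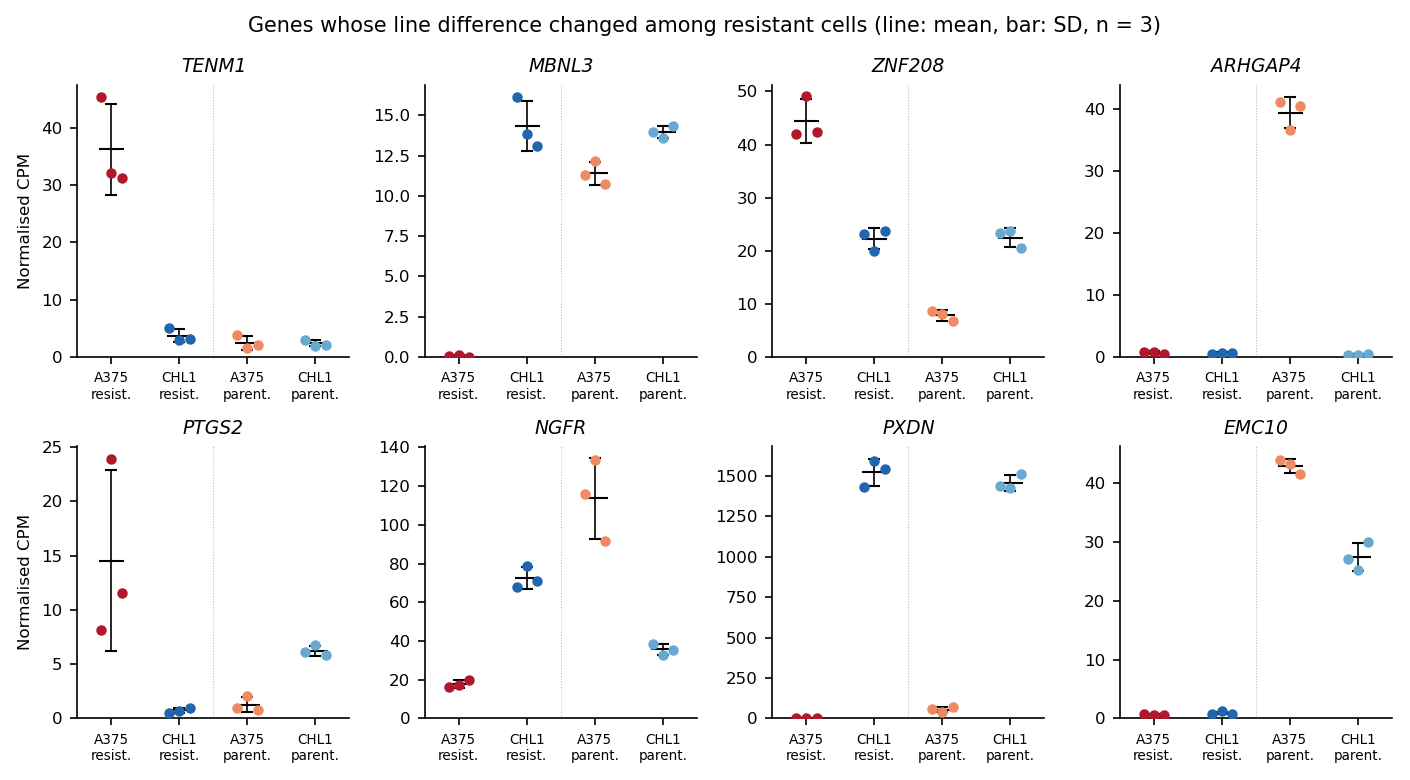
Normalised CPM of 8 genes whose line difference changed, in each library of resistant A375, resistant CHL1, parental A375 and parental CHL1; points are libraries, the line is the mean and the bar the SD (n = 3). MBNL3 is at 0 to 0.0968 CPM in resistant A375 and at 10.7 CPM or more in the other 3 groups, and NGFR and PTGS2 change sides.

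EMC10 came down in both lines. This subunit of the endoplasmic reticulum membrane complex had 0.687, 0.645 and 0.619 CPM in resistant A375 and 0.730, 1.18 and 0.793 CPM in resistant CHL1, against 44.0, 43.3 and 41.6 CPM in parental A375 and 27.1, 25.3 and 30.1 CPM in parental CHL1. Both resistant groups were far below both parental groups, and the change from parental to resistant was -6.04 ± 0.13 in A375 and -4.91 ± 0.13 in CHL1 on the log2 scale. The line contrast of 0.64 ± 0.08 among parental cells was -0.48 ± 0.22 among resistant cells (edgeR adjusted p = 0.073; 0.026 without the first resistant CHL1 library and 0.041 without the last), and the difference was -1.12 ± 0.23 (adjusted p = 0.0027). Of the 10 tested members of that complex's list, 6 were higher and 3 lower in resistant A375, against 39.6% and 37.4% of all genes. The difference was called up in 1 and down in 2, EMC10 included, against 12.6% and 10.5% of all genes. EMC2 had 23.7 ± 0.343 CPM in resistant A375 and 82.4 ± 0.671 CPM in resistant CHL1, and its difference between contrasts was not called (adjusted p = 0.69).

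The genes whose line contrast moved were unevenly placed over the chromosomes. Of 541 protein-coding genes tested on the X chromosome, 28 had a positive and 64 a negative 2-fold difference between contrasts, 17.0% in all, against 7.66% of 14515 protein-coding genes. On chromosome 10 the counts were 22 and 48 of 551, or 12.7%, and on chromosome 19 they were 80 and 23 of 1043, or 9.88%. Chromosome 3 had the highest median difference, 0.36, with a median log2 fold change of A375 over CHL1 of 0.50 among resistant cells and 0.16 among parental cells. Within the lines its median change from parental to resistant was 0.02 in A375 and -0.34 in CHL1. Chromosomes 10 and 13 had median differences of -0.30 and -0.28, with median changes of -0.29 and -0.37 within A375 and of 0.04 and -0.11 within CHL1. Chromosome 19 had a median difference of 0.19, with 0.20 within A375 and -0.01 within CHL1. On chromosome 22 the line contrast was the lowest of all, -0.69 among resistant and -0.65 among parental cells, and its median difference was -0.05. Copy number was not measured, these medians have no test, and the within-line changes share their libraries with the contrasts. The chromosome is stated above for some of the named genes only, and genes of 1 chromosome may not have changed independently.

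**Figure D5:**
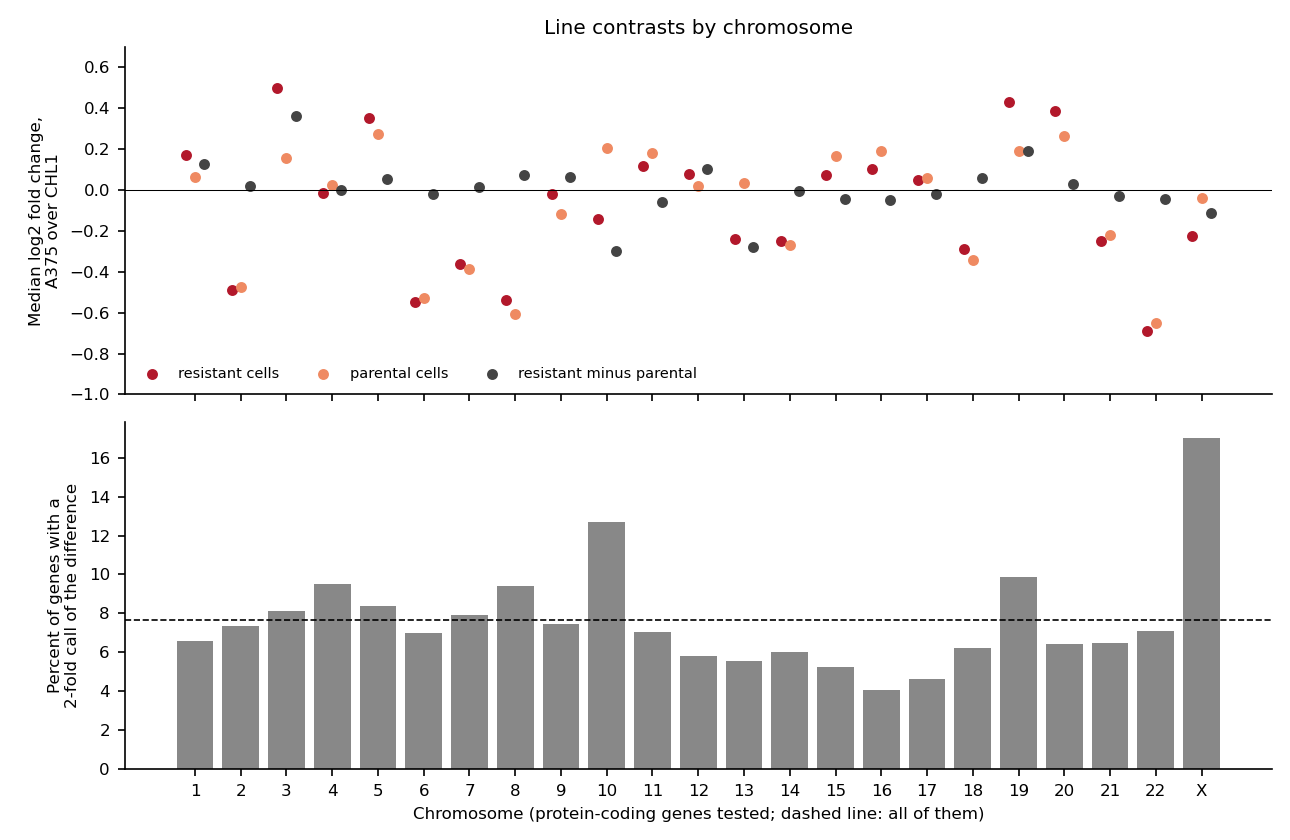
Median log2 fold change of A375 over CHL1 over protein-coding genes of each chromosome among resistant cells, among parental cells and as resistant minus parental (top), and the percent of those genes with a 2-fold call of the difference (bottom; dashed line, all chromosomes at 7.66%). Chromosome 3 stands highest for the difference at 0.36, chromosomes 10 and 13 lowest at -0.30 and -0.28, and the X chromosome holds the largest share at 17.0%.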

How the data were processed

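Total RNA was made into TruSeq v2 libraries, which do not mark the strand, per the labels' protocols. The authors deposited 2 tables of read counts per Ensembl gene, 1 per line, without normalisation. Per the submitters' processing notes, CASAVA 1.8.2, cutadapt 1.7, TopHat2, HTSeq 0.5 and limma were used; neither genome build nor annotation is named there. The tables listed 33932 and 32478 identifiers, 29735 in both; an identifier missing from 1 table was counted as 0 there. Identifiers were matched to symbols through the reference tables, and 2820 of 36675 had none.

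The 12 libraries in 4 groups were fitted once with edgeR 4.0.16 (R 4.3.3; TMM factors, filterByExpr with a minimum count of 10, quasi-likelihood F-test, Benjamini-Hochberg adjustment over 19545 genes). The contrasts were A375 over CHL1 among resistant cells, the same among parental cells, and their difference. SE is the absolute log2 fold change over the square root of F. Kept and reversed genes had a 2-fold call in both contrasts, with the same or the opposite sign; appeared and vanished genes had it in 1 contrast only and a called 2-fold difference. Folds against a group at 0 used 3 counts over the group; ratios on few reads have 95% exact counting intervals.

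Named genes were 27 chosen genes (CCND2 was too low to be tested), the 10 largest fold changes per direction at 50 CPM or more, 6 per class and direction at 10 CPM or more, and up to 6 per list at 5 CPM or more; the few other list members named were chosen after their values were seen, and some genes are not reported here. The comparison, the chosen genes and the 39 gene lists were picked with earlier results of these data known; the labels alone set which libraries enter it. The fit was run on simulated counts, with both lines drawn from CHL1 levels and 200 genes changed in resistant A375. The simulated lines did not differ otherwise, so that run does not cover line differences as wide as those found here. Alternatives were RLE and upper-quartile scaling, DESeq2 1.42.0, other low-count filters, identifiers in both tables only, a 2-fold test, the resistant libraries alone, a replicate block, and leaving out each library. Replicates differed by more than counting noise (chi-square per gene 5.66 to 16.9), so none was counted as a repeat.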

Additional observations from a re-analysis of the deposited data

Results flagged for a closer look

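The line contrast, A375 over CHL1, differed between resistant and parental cells for 105 named genes by edgeR's quasi-likelihood test of the difference itself (adjusted p under 0.05 over 19545 genes, where 23.1% of genes passed). Values are log2 differences, resistant minus parental. In the cell cycle and p53 axis and among lineage genes they were -1.45 for CDK6, -0.86 for CCNE1, 0.64 for CDKN1A, -0.31 for RB1, 0.94 for MDM2, 0.32 for BRAF, -3.71 for NGFR and -1.12 for EMC10.

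Among differences that appeared toward A375 the values were 3.27 for TENM1, 2.50 for NAP1L3, 2.29 for BIRC3, 2.11 for SCUBE3, 2.11 for TMTC1 and 2.03 for PDE5A. Toward CHL1 they were -7.57 for MBNL3, -4.36 for BASP1, -3.87 for STK26, -3.19 for LDOC1, -2.90 for AFAP1L2 and -2.66 for LPAR1.

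Among differences that vanished, those once higher in A375 had -7.42 for TMPRSS15, -6.39 for ARHGAP4, -4.05 for SMOC1, -3.40 for KRT14, -2.97 for PKP2 and -2.88 for DNAH2. Those once higher in CHL1 had 3.07 for DTNA, 2.52 for ZNF208, 2.39 for FOLH1, 2.23 for PTPRZ1, 2.22 for LRP3 and 2.17 for LRRC4B.

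Reversals toward A375 had 8.78 for UTS2, 6.62 for PTGS2, 5.73 for BMP7, 3.98 for SPRR2D, 3.07 for PPP4R3C and 2.61 for LUM. Reversals toward CHL1, beside NGFR, had -5.99 for MAGEA10, -4.47 for ITGB4, -3.42 for BST1, -2.97 for MME and -2.76 for SMARCA1.

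Genes of replication, p53, the BCL2 family and the PRMT family had 0.86 for LIG1, 0.69 for POLD1, 0.42 for MCM2, -0.27 for MCM3, 1.87 for FAS, -0.66 for BOK and 1.57 for BBC3. To these come 1.32 for BAX, 0.80 for PMAIP1, 0.52 for BCL2, 0.76 for PRMT1, 0.30 for PRMT6, -0.59 for PRMT2 and -0.30 for MTAP. Lineage, receptor, adhesion and matrix genes and those of the leading 10 had -1.28 for UCHL1, -6.11 for PXDN, 3.37 for DCT, 1.85 for GPM6B, 1.17 for MERTK, -0.95 for EPHB6, 3.25 for COL8A1, 1.63 for ITGA1 and 1.27 for ITGA10. To these come 7.32 for MMP9, -2.96 for CDH11, -4.84 for CDH4, -1.82 for PLXNB3, 0.85 for SEMA6A, -1.22 for S100B, 0.64 for KRT8 and 0.44 for KRT10. Antigen, interferon, cytokine and HOX genes had 2.17 for HOXB13, -1.84 for MAGEA4, -0.88 for IFI35, 0.95 for OAS1, -0.47 for HLA-C, 1.83 for CXCL12 and 2.52 for IL1A. Signalling genes of TGF-beta, WNT and YAP had -1.66 for ID4, 0.80 for BMPR1B, -0.38 for SMAD3, 1.85 for LTBP1, -0.64 for TCF7, 0.58 for FZD3, 1.05 for DKK1 and -1.77 for MYOF. Metabolic, stress, lysosomal, transporter, endoplasmic reticulum and ribosomal genes had 0.43 for GPI, 0.52 for PFKP, -0.72 for SLC1A4, -0.98 for TM7SF2, -0.73 for NSDHL, -1.11 for TFEB, -0.40 for LAMP2, -0.79 for CTSD and -1.05 for ATP6AP1. To these come -1.20 for ABCC2, 0.94 for FTL, -0.83 for MMGT1, 0.50 for RPS27L, 0.67 for RPL13A, 0.65 for RPL28 and 0.62 for RPL18.

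Of the 105, 18 lost their call under at least 1 alternative other than the test against 2-fold. PRMT6 lost it under 13 alternatives (adjusted p 0.052 to 0.16), KRT8 under 9 (0.055 to 0.13), BRAF under 8 (0.051 to 0.15), FAS under 8 (0.053 to 0.14) and MMP9 under 7 (0.053 to 0.099). HOXB13 lost it under 5 (0.055 to 0.11), IL1A under 4 (0.057 to 0.11), CXCL12 under 3 (0.098 to 0.17) and DKK1 under 3 (0.050 to 0.057). UCHL1 lost it under 2 (0.083 and 0.20), HLA-C under 2 (0.052 and 0.069), KRT10 under 2 (0.051 and 0.058) and SLC1A4 under 2 (0.058 and 0.068). MERTK (0.11), MTAP (0.069), SMAD3 (0.053), TCF7 (0.062) and TMPRSS15 (0.054) lost it under 1 each.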

How the results depend on the processing

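Of 318 alternative values of the counts of calls and classes, 313 stayed within 1.5 times the value reported. The other 5 came from testing against a 2-fold threshold (glmTreat), a stricter test by construction: 2-fold differences between contrasts then numbered 198 higher and 111 lower, 78 line differences appeared, 91 vanished and 13 reversed. Under DESeq2, 6160 of the 6295 kept genes stayed kept, 242 of the 284 appeared and 231 of the 277 vanished genes stayed in their class. Upper-quartile scaling moved the median of all genes by 0.13 among resistant cells and 0.11 among parental cells.

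For single genes, 7709 alternative values kept their call and direction, 129 lost a call, 16 gained one and 18 changed sign. All sign changes were of genes with no call between resistant lines in the values reported: CDK4 at 0.12 with upper-quartile scaling (a call, adjusted p = 0.027), 0.017 with a filter of 1 CPM and 0.0030 with the 6 resistant libraries alone; DNAH2 at 0.056 with upper-quartile scaling; and CDK2 at -0.021 without a filter on low counts and -0.0095 with identifiers in both tables only. Leaving out 1 library gave -0.039 to 0.026 for CDK2, -0.29 to 0.046 for DNAH2, -0.052 to 0.14 for MKI67 and -0.020 to 0.39 for ARHGAP4; the cause was not tested.

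Libraries of the 2 lines with the same replicate number did not deviate together (correlations -0.0208, -0.053 and 0.0162 between resistant libraries), so the numbers do not pair them. Between resistant and parental libraries of the same number the correlations were 0.209, 0.214 and -0.0111 in A375 and 0.0891, 0.016 and -0.0011 in CHL1. Those of different number gave -0.254 to 0.0593 in A375 and -0.0606 to 0.0448 in CHL1. A pairing of some libraries within A375 is therefore possible. With replicate number as 1 block shared by both lines, 4127 and 3677 genes had a 2-fold call between resistant lines, and 795 and 539 had a 2-fold difference between contrasts. In that fit 288 differences appeared, 278 vanished and 43 reversed. A block within each line was not fitted, so these counts do not address a pairing within A375. With 3 libraries a group, low levels are limited by depth: 3 reads are 0.101 to 0.118 CPM, and folds of genes near 0 in 1 line depend on those few reads.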
